A study of Mus musculus with 13 samples.

Results

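The microRNA (miRNA) miR-210-3p (mmu-miR-210-3p on the array) was followed across 13 primary abdominal neuroblastomas of mice. It was found by its name among the spots of each array that are not controls. Both arms of its hairpin, miR-210-3p and miR-210-5p, are among the 1079 mouse miRNAs on the array. miR-210-3p was detected by the scanner software on 13 of 13 arrays and miR-210-5p on 0, so that the values below are those of miR-210-3p. It was set beside the 293 other mouse miRNAs that were detected on all 13 arrays.

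By the series title the mice were of the TH-MYCN strain, in which a MYCN transgene is driven in the sympathetic lineage by the promoter of tyrosine hydroxylase. By the labels, 7 tumours were deficient in caspase-8 and had spread to the bone marrow, and 6 had wild-type caspase-8 and had not. Genotype and metastasis changed together, so that their parts in any difference cannot be told apart. The sources used here do not say how caspase-8 was removed, how old the mice were or which share of the cells was tumour. RNA from whole tumours was hybridised to 1-colour Agilent mouse miRNA arrays, and in such bulk RNA fewer cells making a miRNA and less miRNA per cell cannot be told apart.

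miR-210 is the miRNA most regularly induced by low oxygen. Hypoxia-inducible factors bind near its gene and raise its transcription in most cell types, and it lowers mitochondrial respiration by repressing the iron-sulfur cluster scaffold ISCU. It also represses MNT, an antagonist of the MYC proteins, and the ephrin EFNA3, which acts on vessel growth. In solid tumours its level is often read as a sign of hypoxia, but oxygen was not measured in these tumours.

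The gene Mir210 lies on the minus strand of mouse chromosome 7, between Rassf7 and Gm51460 in the GRCm38.p6 annotation of RefSeq, which also gave the sequences below. The hairpin is shown 5′ to 3′ with both mature arms in capitals, miR-210-5p before miR-210-3p, because the arms were measured separately.
Mir210 hairpin: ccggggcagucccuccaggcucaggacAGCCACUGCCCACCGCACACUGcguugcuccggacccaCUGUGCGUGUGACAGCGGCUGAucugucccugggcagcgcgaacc
In the mature sequences that follow, capitals mark the seed, bases 2 to 8, which pairs with target transcripts.
miR-210-3p: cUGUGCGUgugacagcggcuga
miR-210-5p: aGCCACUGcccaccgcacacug
Of 1679 mature mouse sequences in the RefSeq table, 1 has the seed UGUGCGU, which is miR-210-3p itself. It thus has no family member by seed in this table. Of its 22 bases 63.6% are G or C, against a median of 47.8% over the miRNAs detected on all arrays that have a sequence in the table.

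miR-210-3p was read by 2 probes with 20 spots each. Levels are spot intensities averaged per probe, summed over the probes, scaled between arrays and given on the log2 scale. In the deficient tumours the levels were 7.05, 5.44, 6.07, 7.12, 6.51, 7.09 and 6.36 in replicates 1 to 7. In the wild-type tumours they were 5.80, 6.45, 7.65, 8.80, 5.61 and 8.14 in replicates 1 to 6. The ranges overlapped: the 3 highest tumours were wild-type replicates 4, 6 and 3, and the lowest was deficient replicate 2, followed by wild-type replicates 5 and 1. On the linear scale the highest tumour had 447 and the lowest 43.5 scaled intensity units, an approximate ratio of 10.3 (12.9 before scaling), since the lowest tumour was read close to background.

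**Figure D1:**
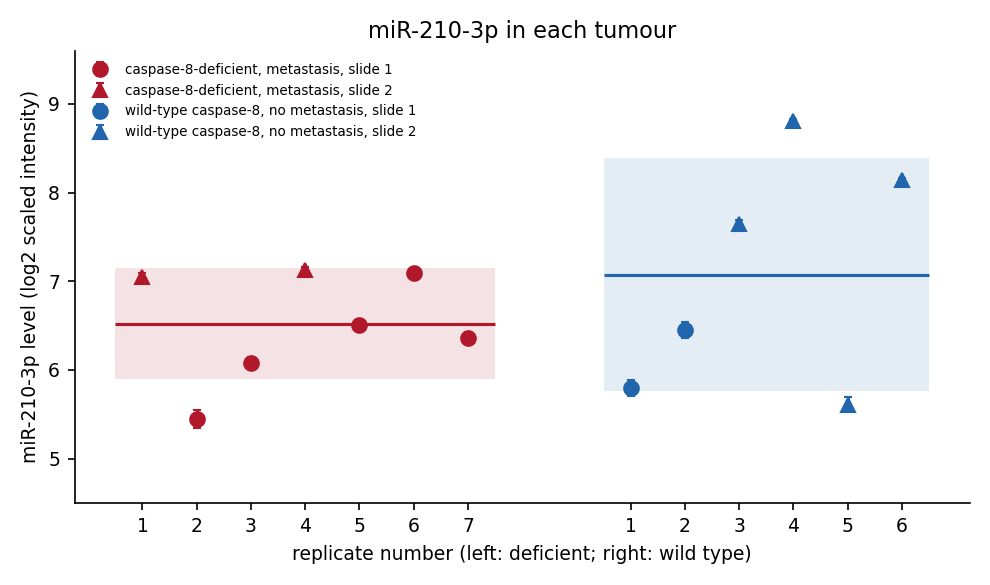
Level of miR-210-3p (log2 scaled intensity) in each tumour by replicate number, with circles for slide 1 and triangles for slide 2; error bars are 95% intervals from the spots, lines are group means and bands 1 SD. The deficient tumours lie between 5.44 and 7.12, the wild-type tumours between 5.61 and 8.80.

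The spread between tumours was much wider than the error of the spots. The standard error of a tumour's level over its spots was 0.015 to 0.053 on the log2 scale, against an SD of 0.999 over the 13 tumours. In the order of levels, 8 of the 12 neighbouring pairs were further apart than the 95% interval of their spot errors. The other 4 pairs lay within it: deficient replicates 4 and 6, deficient replicates 6 and 1, deficient replicate 5 and wild-type replicate 2, and wild-type replicate 2 and deficient replicate 7. Spot error leaves out extraction, labelling and hybridisation, for which there were no repeats. Among the 294 miRNAs detected on every array, miR-210-3p had the 29th highest SD, against a median SD of 0.47.

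The probes told a similar but not identical order. Their log2 levels correlated with r = 0.992 over the 13 tumours, a description of 2 readings of the same RNA. By the brighter probe the lowest tumour was wild-type replicate 5, at 29.32 scaled units against 29.53 in deficient replicate 2. By the dimmer probe the lowest was deficient replicate 2. Its place as the lowest tumour in the sum thus rests on the dimmer probe. The brighter probe was 1.46 to 2.11 times as bright as the dimmer one. Signal was low in several tumours. All 20 spots of the brighter probe were well above background in 10 tumours, and all 20 of the dimmer probe in 6. In deficient replicate 2 only 1 spot of the brighter probe and 0 of the dimmer probe were well above background, and in wild-type replicate 5 the counts were 7 and 0, so that the levels of these tumours rest close to background.

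**Figure D2:**
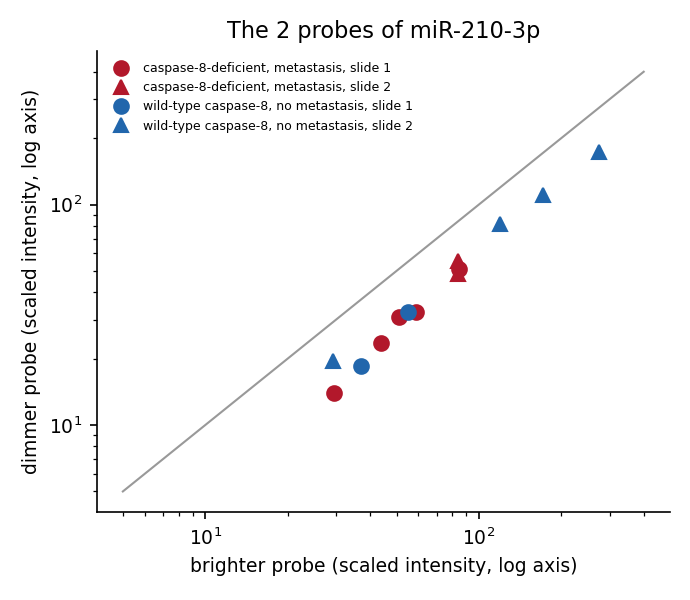
Scaled intensity of the dimmer against the brighter probe of miR-210-3p in the 13 tumours, both axes logarithmic; the grey line marks equal intensity. The points follow 1 line, with the brighter probe 1.46 to 2.11 times as bright.

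The opposite arm, miR-210-5p, was not detected in any tumour. Its 2 probes summed to −9.36 to 5.63 unscaled intensity units after background subtraction, and 1 of its 520 spots over all arrays was well above background. No level or comparison is given for it.

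Whether miR-210-3p differed between metastatic caspase-8-deficient and non-metastatic wild-type tumours was asked first. The mean log2 level was 6.52 ± 0.63 in deficient tumours (SD, n = 7) and 7.08 ± 1.31 in wild-type tumours (SD, n = 6). The difference, deficient minus wild type, was −0.55 (SE 0.51, limma adjusted p = 0.672 over 419 tested miRNAs), with a 95% interval from −1.65 to 0.54. Limma fits a linear model per miRNA and moderates its variance over all of them. An exact permutation test of miR-210-3p alone over all 1716 splits of the tumours gave p = 0.340 (two-sided). The difference was thus smaller than the spread between tumours, and the interval leaves room for changes of over 1 log2 unit downwards. Of the 419 miRNAs, 0 passed an adjusted p of 0.05 in limma (0.0%), and 16 had an unadjusted p under 0.05 (3.82%), miR-210-3p not among them.

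The slide on which a tumour was read moved with its level. The arrays lay on 2 slides, which held the groups in unequal shares. On slide 2, the 2 deficient tumours were at 7.05 and 7.12 and the 4 wild-type tumours at 5.61 to 8.80. On slide 1, the 5 deficient tumours were at 5.44 to 7.09 and the 2 wild-type tumours at 5.80 and 6.45. The mean was 7.40 ± 1.09 on slide 2 (SD, n = 6) and 6.25 ± 0.53 on slide 1 (SD, n = 7), and slide 2 was higher by 1.15 (exact two-sided permutation p = 0.0326). With group as a term the difference between slides was 1.098 (SE 0.48, limma adjusted p = 0.758, exact permutation p = 0.0825 within groups). By slide 0 of 419 miRNAs passed in limma (0.0%), and 26 had an unadjusted p under 0.05 (6.21%), miR-210-3p among them.

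With slide as a block the difference between deficient and wild-type tumours was −0.14 (SE 0.48, limma adjusted p = 0.952, exact permutation p = 0.822 over 315 splits). It was 0.17 (SE 0.44) within slide 1 and −0.46 (SE 0.80) within slide 2, each resting on 2 tumours in 1 of the groups. The difference also turned to 0.22 (SE 0.41) with array weights, a fit that gives arrays of higher residual variance less weight. Without wild-type replicate 4, the highest tumour, it was −0.21, without wild-type replicate 6 it was −0.34, and without wild-type replicate 5 it was −0.85.

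**Figure D3:**
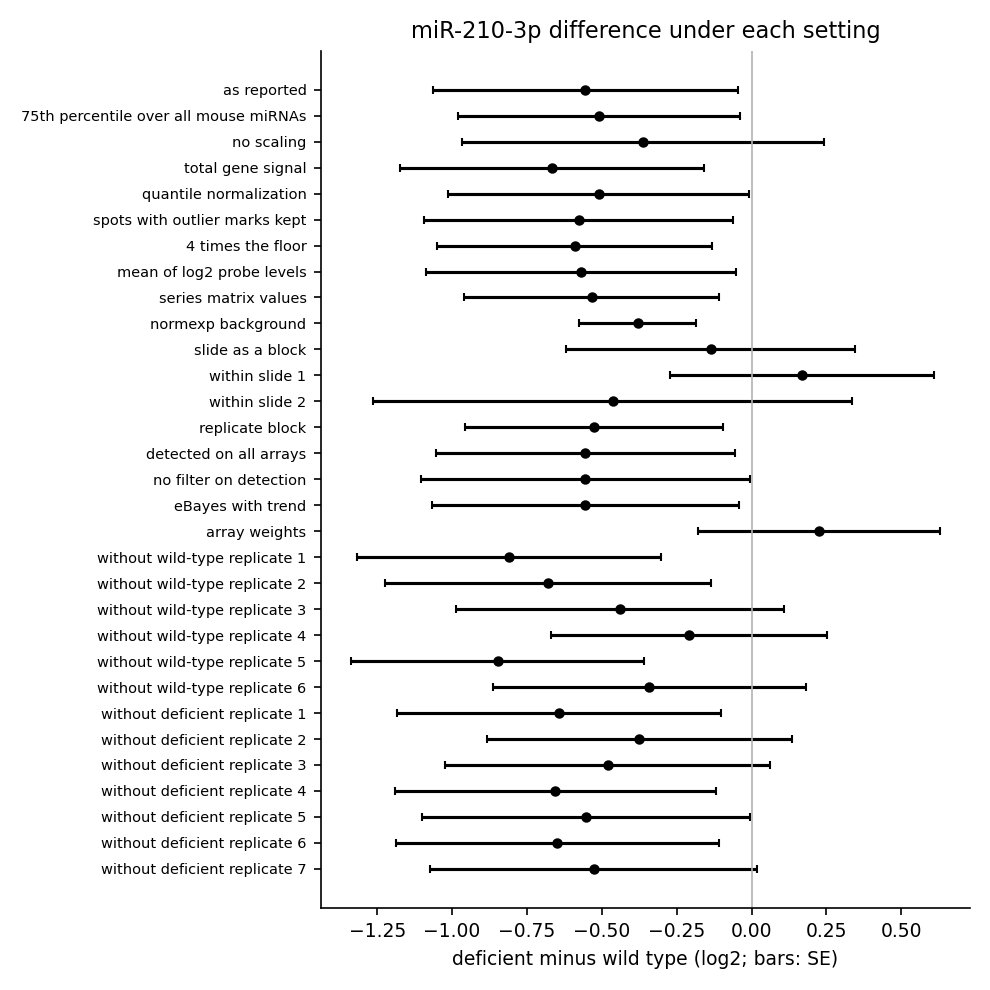
Difference of miR-210-3p (deficient minus wild type, log2; bars are standard errors) as reported and under each alternative, including leaving out 1 tumour at a time. Nearly all estimates are negative; within slide 1 (0.17) and with array weights (0.22) they are positive.

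The brightness of the array also varied. The 75th percentile of intensity was 999.8 to 1866 units in deficient and 850.9 to 1929 units in wild-type tumours. In deficient tumours 375 to 469 miRNAs were detected, and in wild-type tumours 338 to 452. The log2 level of miR-210-3p, after scaling, correlated with the log2 75th percentile with r = 0.403 over all tumours (Spearman rho 0.390, permutation p = 0.172 and 0.190, adjusted p = 0.489 and 0.532 over 14 array and list measures), and with r = 0.445 without wild-type replicates 4 and 6, the 2 tumours farthest from the median of miR-210-3p. Within the deficient tumours r was 0.876 (n = 7) and within the wild-type tumours 0.402 (n = 6). The part of array brightness in the correlations within deficient tumours was not tested.

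The second question was which miRNAs followed miR-210-3p from tumour to tumour. Pearson's r of the log2 levels was computed with each of the 293 others and tested with 100000 permutations of the tumours. After adjustment 0 of 293 passed 0.05 (0.0%), with a smallest adjusted p of 0.0908. At an unadjusted p under 0.05 there were 37 (12.6%), 12 with positive and 25 with negative r. Of all 293, 99 had r above 0 and 194 below (median −0.131). This balance turned with scaling: with no scaling 256 were above 0 and 37 below (median 0.293), and with scaling to the total gene signal 146 were above and 147 below. By Spearman's rho 11 had an unadjusted p under 0.05 and 0 passed after adjustment (smallest adjusted p = 0.527). The nearest and farthest patterns are therefore given as a description, with the sequences of those in the RefSeq table, seeds in capitals.
miR-132-3p: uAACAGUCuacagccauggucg
miR-1187: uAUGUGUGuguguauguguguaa
miR-574-5p: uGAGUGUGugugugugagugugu
miR-409-3p: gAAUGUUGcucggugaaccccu
miR-18a-5p: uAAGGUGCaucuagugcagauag
miR-541-5p: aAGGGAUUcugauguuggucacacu

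The highest correlation was with miR-132-3p, an activity-regulated miRNA of neurons that is transcribed under CREB. Its log2 levels in deficient replicates 1 to 7 were 6.69, 6.74, 6.04, 7.31, 7.37, 7.40 and 7.96, and in wild-type replicates 1 to 6 they were 7.63, 7.36, 9.62, 8.06, 6.13 and 9.15. The 3 tumours highest in miR-210-3p, wild-type replicates 3, 4 and 6, were also the 3 highest in miR-132-3p. Over 13 tumours r was 0.665 (permutation p = 0.0131, adjusted p = 0.300) and Spearman's rho 0.621 (permutation p = 0.0266, adjusted p = 0.728). It was 0.350 within slide 1 and 0.710 within slide 2, 0.342 within deficient and 0.707 within wild-type tumours, and 0.616 without the 2 farthest tumours. Of the 6 miRNAs with the highest r it was the one that changed least when those tumours were left out.

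The next 5 were miR-3096-5p (r = 0.640), miR-1196-5p (0.634), miR-1187 (0.605), miR-574-5p (0.596) and miR-669b-5p (0.591), each with an adjusted p of 0.300 or 0.350. Wild-type replicate 4, the tumour with the most miR-210-3p, was also the highest of the 13 in all 5. Without the 2 farthest tumours r fell to 0.151 for miR-3096-5p, 0.392 for miR-1196-5p, 0.220 for miR-1187, 0.191 for miR-574-5p and 0.267 for miR-669b-5p. These relations were thus weaker without those tumours, which both lay on slide 2. The 2 tumours were chosen as extremes of miR-210-3p, and a narrower range of its level tends by itself to weaken r. Within slide 1 r was −0.185 for miR-3096-5p and 0.424 to 0.694 for the other 4, and within slide 2 r was 0.565 to 0.727 for the 5.

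miR-1187 and miR-574-5p consist largely of alternating G and U, and both hold GUGUG, which miR-210-3p also has across the end of its seed. The stretch was looked for in the mature RNA after these names had been seen. Of 234 miRNAs detected on all arrays and present in the RefSeq table, 9 held it (3.85%), miR-210-3p included. Since the stretch was picked from miRNAs of high r, no r is compared between those with and without it. Whether probes for such repeats read each other's targets was not tested.

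The lowest correlation was with miR-409-3p, a miRNA of the imprinted Dlk1-Dio3 cluster. Its log2 levels in deficient replicates 1 to 7 were 10.81, 11.11, 10.89, 10.72, 11.03, 11.06 and 11.10, and in wild-type replicates 1 to 6 they were 11.13, 11.09, 10.71, 10.18, 10.87 and 10.47. The range was narrow, and wild-type replicates 4 and 6 were lowest. Over 13 tumours r was −0.845 (permutation p = 0.00031, adjusted p = 0.0908) and rho −0.791 (permutation p = 0.0018, adjusted p = 0.527). It was −0.163 within slide 1 and −0.880 within slide 2, −0.562 within deficient and −0.898 within wild-type tumours, and −0.575 without the 2 farthest tumours. The size of the relation depended on scaling. With no scaling between arrays r was −0.0646. It was −0.437 with scaling to the total gene signal and −0.550 with the 75th percentile over all mouse miRNAs. Without wild-type replicate 5 r was −0.901 (adjusted p = 0.0176), the only case among the tumours left out in turn in which a miRNA passed.

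Of the other 3 lowest, miR-18a-5p, made from the MYCN-driven transcript of the miR-17 cluster, had r = −0.800 (adjusted p = 0.146). Its levels were 10.24 to 10.59 in the deficient tumours and 9.41 to 10.59 in the wild-type tumours, where replicates 3, 4 and 6 were at 9.61, 9.41 and 9.57. Within deficient tumours r was 0.0168, and within wild-type tumours −0.927. miR-3096b-3p had r = −0.788 (adjusted p = 0.146), with 0.443 within slide 1 and −0.912 within slide 2. miR-541-5p, also of the Dlk1-Dio3 cluster, had r = −0.765 (adjusted p = 0.149), with 0.590 within slide 1 and −0.909 within slide 2. Without the 2 farthest tumours r was −0.490 for miR-18a-5p, −0.403 for miR-3096b-3p and −0.348 for miR-541-5p. With no scaling it was −0.206, −0.169 and −0.0503 in the same order. These relations too were weaker without those tumours and without scaling.

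**Figure D4:**
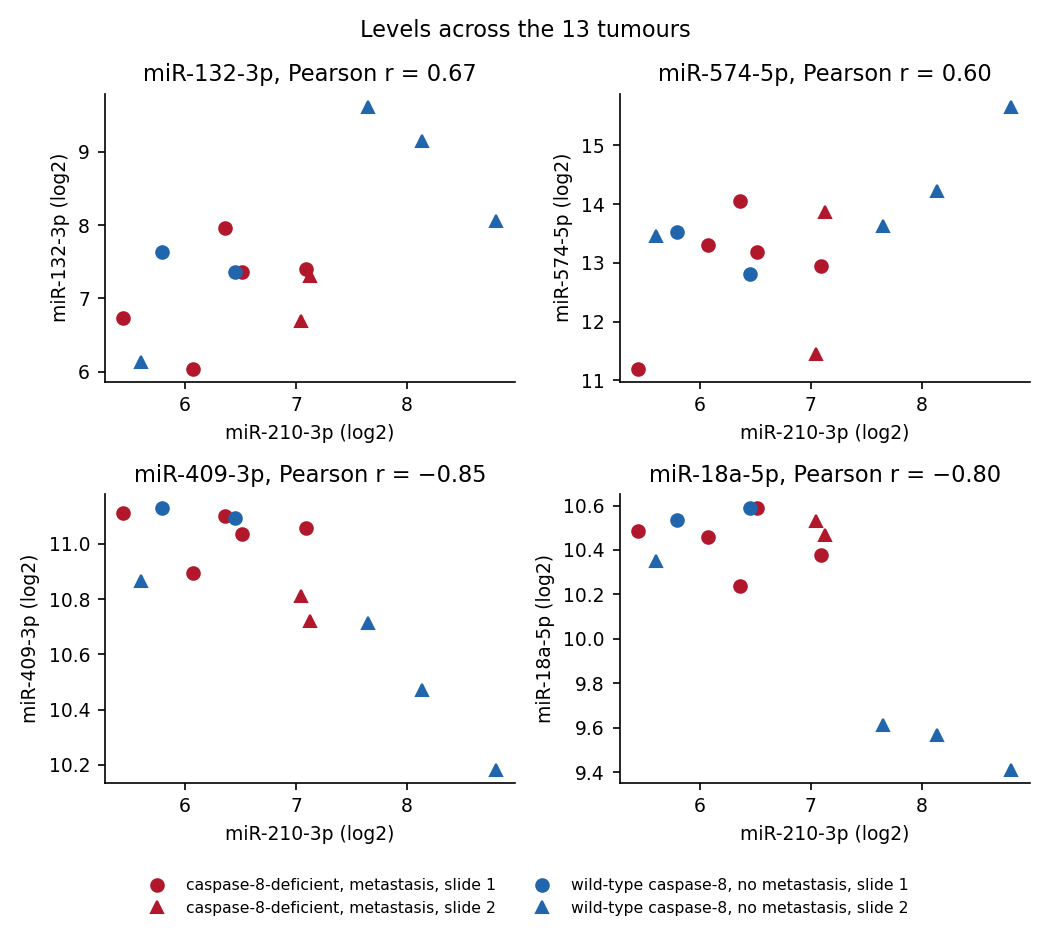
Log2 levels of miR-132-3p, miR-574-5p, miR-409-3p and miR-18a-5p against miR-210-3p in 13 tumours (red deficient, blue wild type; circles slide 1, triangles slide 2). The 3 wild-type tumours at 7.65 to 8.80 in miR-210-3p lie at the edge in each panel except that of miR-574-5p, where only replicates 4 and 6 do.

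Other miRNAs reported to rise in hypoxic tumour cells were taken as a list. Of its 19 tested members 0 passed between the groups in limma, with 8 higher and 11 lower means in deficient tumours and a median difference of −0.04, against 0.04 over all 419. The median r with miR-210-3p of the 17 detected on every array was 0.115, with 11 above 0 and 6 below, against −0.131 over all 293, and 0 passed. This contrast did not hold in every setting. It held within slide 1, with a median of 0.684 (16 above 0, 1 below), against 0.0883 over all. Within slide 2 the list was lower, at −0.526 (4 above 0, 13 below), against −0.226 over all. With slide as a block the median was −0.121 (5 above 0, 12 below), against −0.120 over all, and with normexp background it was −0.0984, against −0.0941. Without deficient replicate 2 the list stayed above all miRNAs, but its median turned negative, at −0.0962 against −0.157. It also stayed above them with no scaling, at 0.465 (17 above 0) against 0.293. The highest were 3 miRNAs that one cluster encodes (miR-24-3p also comes from a further cluster), miR-27a-3p (r = 0.545), miR-23a-3p (0.534) and miR-24-3p (0.506), each with an adjusted p of 0.350 or 0.376. They were positive in both groups, at 0.731, 0.774 and 0.694 within deficient and 0.468, 0.394 and 0.360 within wild-type tumours. They were at 0.747, 0.661 and 0.728 within slide 1, but at 0.258, 0.00907 and 0.147 within slide 2. Next was miR-322-5p, the mouse form of human miR-424, at 0.460 (adjusted p = 0.434). miR-21-5p, a miRNA raised in many tumours, was at 0.258 (adjusted p = 0.741). The lowest was miR-93-5p, at −0.651 (adjusted p = 0.300), with 0.323 within slide 1 and −0.707 within slide 2, 0.190 within deficient and −0.812 within wild-type tumours, and 0.0187 with no scaling.

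The list of miRNAs reported to repress HIF-1alpha, the oxygen-regulated subunit that induces miR-210, shares miR-17-5p, miR-18a-5p and miR-20a-5p with the miR-17 cluster. Of its 7 tested members 0 passed between the groups, with 6 higher means and 1 lower in deficient tumours, against 227 higher of all 419. Of the 5 detected on every array, miR-199a-5p had r = 0.304 (adjusted p = 0.659) and the other 4 had negative r, with miR-20a-5p at −0.639 (adjusted p = 0.300), miR-20b-5p at −0.544 (adjusted p = 0.350) and miR-17-5p at −0.517 (adjusted p = 0.350), beside miR-18a-5p. The median r of the 5 was −0.544, against −0.131 over all 293, of which 194 had negative r. It was 0.300 within deficient tumours (5 above 0) and −0.857 within wild-type tumours (1 above 0), against 0.154 and −0.232 over all. Within slide 1 it was 0.332 and within slide 2 −0.783, against 0.0883 and −0.226 over all. Without the 2 farthest tumours it was −0.0699, against 0.0734 over all, and with no scaling 0.163, against 0.293.

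All 7 members of the miR-17 cluster, the main polycistron induced by MYC and MYCN, had negative r, from −0.800 to −0.517 with a median of −0.654, and 0 passed after adjustment, while 6 had an unadjusted permutation p under 0.05. Over all 293 miRNAs 194 had negative r and 37 (12.6%) such a p. miR-92a-3p was at −0.723, miR-17-3p at −0.715, miR-19b-3p at −0.654 and miR-19a-3p at −0.560. The median r was 0.153 within deficient and −0.867 within wild-type tumours, and 0.0493 within slide 1 and −0.782 within slide 2. Over all 293 the medians were 0.154, −0.232, 0.0883 and −0.226 in the same order. The cluster's median was −0.136 without the 2 farthest tumours and 0.0221 with no scaling. With scaling to the total gene signal it was −0.364, with all 7 below 0. The relation was thus weaker without those tumours, and its size changed with scaling. Between the groups all 7 means were higher in deficient than in wild-type tumours (median difference 0.24), as were 227 of all 419 (median 0.04), and 0 passed.

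The cells that could carry miR-210-3p in or with the tumour were looked at through marker lists. The summed level of the 3 tested erythroid miRNAs, which mark blood, was 19991 to 83796 in deficient and 5005 to 69268 in wild-type tumours, and its log2 correlated with miR-210-3p with r = 0.0975 (Spearman rho 0.0275). This sum was mostly miR-451, with mean log2 levels of 14.89 in deficient and 13.94 in wild-type tumours, against 9.51 and 8.80 for miR-144-3p. The 14 neuronal and neuroendocrine miRNAs mark the tumour's lineage, and 12 were detected on every array. Their sums were 7385 to 12485 in deficient and 8322 to 20120 in wild-type tumours, with r = 0.0514 (rho 0.121). The list holds miR-132-3p (r = 0.665), but brighter members such as miR-7a-5p weigh more in the sum. Of the 14 means 11 were lower in deficient tumours (median difference −0.41), as were 192 of all 419 (median 0.04), and 0 passed in limma. For 6 leukocyte miRNAs the sums were 2214 to 5487 in deficient and 2444 to 8254 in wild-type tumours, with r = −0.0437 (rho 0.0275). The ranges of the groups overlapped in each of these lists. For 4 miRNAs of the endothelial list the sums were 2355 to 6466 in deficient and 2547 to 4935 in wild-type tumours, with r = −0.159 (rho −0.0989). For 6 stroma miRNAs the sums were 1667 to 3961 in deficient and 1906 to 4082 in wild-type tumours, with r = 0.320 (rho 0.225). For 4 skeletal muscle miRNAs the sums were 90.6 to 8994 in deficient and 163 to 3588 in wild-type tumours, with r = 0.0222 (rho 0.247). The permutation p, adjusted over the 14 measures, was 0.577 to 0.943 for these 6 lists by Pearson and 0.714 to 0.935 by Spearman. Without the 2 farthest tumours r was −0.139 to 0.406, highest for the neuronal list. Within slides 1 and 2 r was 0.820 and −0.643 for leukocyte, 0.714 and −0.580 for endothelial, and 0.802 and −0.0378 for stroma miRNAs. For the erythroid, neuronal and skeletal muscle lists it was −0.346 to 0.0657 within slide 1 and 0.0367 to 0.175 within slide 2. An r near 0 over all tumours thus did not hold within each slide for every list. Mural miRNAs gave r = 0.0808 (2 tested members, with miR-143-5p and miR-145-3p detected on no array) and kidney and liver miRNAs 0.375 (2 tested members, summed level at most 94.2). None of these lists passed, which does not show that their cells made no miR-210-3p.

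**Figure D5:**
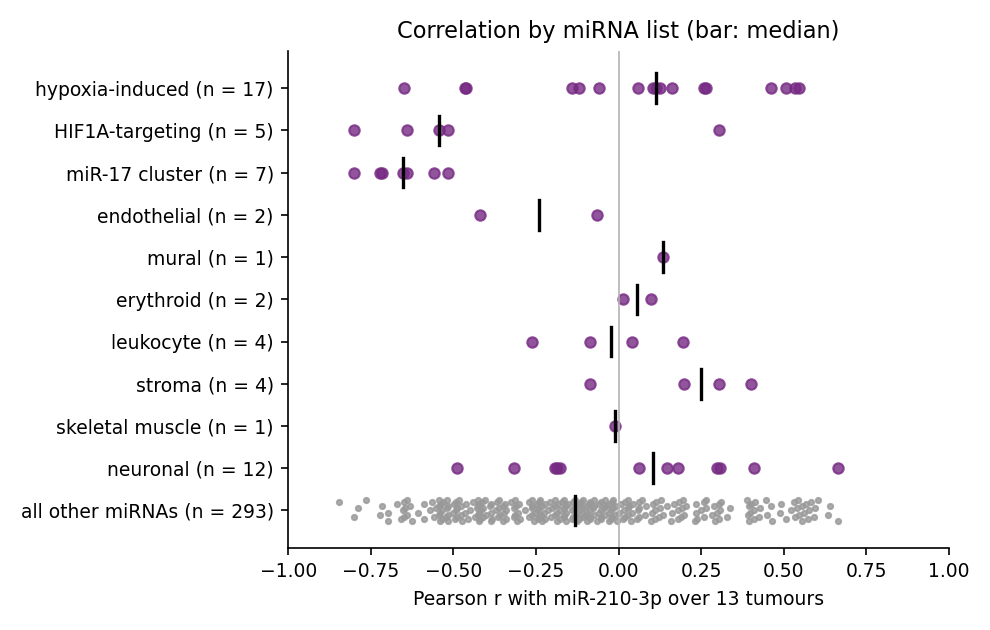
Pearson's r with miR-210-3p over 13 tumours (x axis, no unit) for the members of each list and for all 293 other miRNAs; black bars are medians. The miR-17 cluster members lie together between −0.800 and −0.517, while the hypoxia list spreads from −0.651 to 0.545.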

How the data were processed

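miRNA was measured in 13 tumours on 1-colour Agilent arrays of 47604 spots, 2164 of them controls. The deposited scanner files hold linear spot intensity after background subtraction and spatial detrending, not scaled between arrays, per the file headers. These name Feature Extraction 10.7.3.1, and the submitters' processing notes name 10.5.1.1. Detection and outlier marks are other, yes or no values, per the file headers. A deposited matrix of the series holds log2 values of equal distribution across arrays (median 3.82), whose software beyond Feature Extraction is not given in the sources used here. After centring, each of the 13 columns was nearest to the array of its own tumour.

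Spots without outlier marks were averaged per probe and summed per miRNA. For scaling, the 75th percentile of the 294 always-detected miRNAs was brought to the same value (its geometric mean) in every array. Values under 17.2, percentile 1 of those detected, were set to it before log2 was taken. No spot was saturated (0). The number of arrays limits the precision. Tests covered the 419 miRNAs with detection on 6 or more arrays, with limma 3.58.1 (R 4.3.3), two-sided, with Benjamini-Hochberg adjustment. Single values were tested by exact permutation, correlations by 100000 permutations (numpy 2.4.6), or all orders where 8 or fewer tumours were used. The scripts were tested on simulated data.

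Slides were read from the scanner files. The labels call the tumours biological replicates. Replicate numbers did not pair the tumours: deviations from the group means correlated by −0.287 to 0.154, over 0.1 in 1 of 6 pairs. Named were the 6 highest and 4 lowest in r, the 2 brightest members of each list and list members detected on all arrays. The miRNA, the lists and the tests were chosen with earlier results of these data known. Alternatives covered scaling, background, probe summary, outlier marks, floor, detection filter, variance model, array weights, series matrix, slide, replicate number and single tumours. Correlations within each group were added after seeing the data.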

Additional observations from a re-analysis of the deposited data

How the results depend on the processing

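The difference of miR-210-3p kept its negative sign and stayed short of the threshold under 28 alternatives. It was positive within slide 1 (0.169) and with array weights (0.225). The cause was not tested. With single tumours left out it ranged from −0.848 to −0.209. With slide as a block it was −0.137, with normexp background −0.380 (SE 0.197) and with no scaling −0.361. With the replicate number as a block it was −0.527, and it changed no call. The count of miRNAs past the threshold between the groups was 0 under every alternative run. The count correlated with miR-210-3p was 0, but 1 with 4 times the floor (miR-409-3p, r = −0.888, adjusted p = 0.0403), and 0 to 1 with 1 tumour left out, the 1 being miR-409-3p without wild-type replicate 5 (r = −0.901, adjusted p = 0.0176). Within a single slide or group, 6 or 7 tumours allow few orders, so that a count of 0 there says little. Of the 10 named correlations, 4 changed sign: miR-3096-5p (−0.185), miR-3096b-3p (0.443) and miR-541-5p (0.590) within slide 1, and miR-18a-5p within deficient tumours (0.0168). With group and slide means removed the smallest adjusted p was 0.993. The permutation there ran only within slide and group, with 2 to 5 tumours each, which limits how small p can become. r was then 0.654 for miR-132-3p and −0.759 for miR-409-3p. Alternatives for miR-210-5p gave no value, because it was detected on 0 arrays. Signal near background limits the levels of the lowest tumours.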

Other observations

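The median r of several lists with miR-210-3p had opposite signs within the groups. Within deficient tumours 0 miRNAs passed (smallest adjusted permutation p = 0.262), as within wild-type tumours (0.458). That count says little, since the few orders of 7 or 6 tumours leave hardly any room to pass over 293 miRNAs. The median r of the 2 members of the endothelial list detected on all arrays was 0.781 within deficient and −0.678 within wild-type tumours. Of these, miR-126-3p was at 0.669 and −0.586 and miR-130a-3p at 0.893 and −0.770. The median of the hypoxia list was 0.704 within deficient and −0.253 within wild-type tumours, and that of the 4 leukocyte miRNAs 0.501 and −0.304. For the 4 stroma miRNAs it was 0.728 and 0.0990, and for all 293 miRNAs 0.154 and −0.232. The differences between the groups were not tested, and the groups lay unequally on the slides: the endothelial median was 0.729 within slide 1 and −0.606 within slide 2, and 0.00349 without the 2 farthest tumours. Within deficient tumours miR-210-3p correlated with array brightness, the log2 75th percentile, with r = 0.876, and within wild-type tumours with r = 0.402. The part of brightness in these medians was not tested.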
